A study of Mus musculus with 20 samples.

Results

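Genes that build the centromere and the kinetochore, and genes of the checkpoint that watches over both, were followed in mouse epidermal tumors and in normal skin. The group holds 36 genes listed for these roles, of the 18193 genes that the array measured with a probeset assigned to a single gene, and all 36 were found. Each gene was read from the one of its probesets (a set of short probes for a transcript) with the highest mean over the 20 arrays. Tumors had arisen in mice of FVB strain whose floxed alleles were deleted by a Cre recombinase under the keratin K14 promoter. This promoter acts in the basal cells of stratified epithelia, so that these cells and their descendants carry the deletion. Cells of other lineages in the tissue were not targeted. In Trp53ΔEC mice Trp53 was deleted in this way, and in RbΔEC; Trp53ΔEC mice Rb1 and Trp53 were both deleted. Samples comprised 7 Trp53ΔEC tumors, 8 RbΔEC; Trp53ΔEC tumors and 5 samples of skin from wild type FVB mice aged 2 months. By histology 6 tumors were poorly differentiated carcinomas (2 Trp53ΔEC and 4 RbΔEC; Trp53ΔEC), 4 were mixed (3 and 1), 3 were undifferentiated (1 and 2) and 2 were spindle cell carcinomas (1 and 1). Since an age is labelled for the skin donors alone, age and tumor growth cannot be told apart. Nor is it labelled which tumors share a mouse, and the p-values therefore describe spread between samples, which may be partly technical.

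Chromosomes are pulled apart in mitosis by microtubules that hold them at the centromere, a stretch of chromatin marked by the histone H3 variant encoded by *Cenpa*. On this chromatin sits the constitutive centromere-associated network (CCAN, the inner kinetochore), which recruits the Mis12 and Ndc80 complexes of the outer kinetochore that grip the microtubule. An outermost layer, the corona, carries motors and the Rod-Zw10-Zwilch complex. Kinetochores without a microtubule switch on the spindle assembly checkpoint, whose Mad and Bub proteins hold back the anaphase-promoting complex until every chromosome is attached, while the chromosomal passenger complex with its kinase Aurora B releases faulty attachments. Many of these genes are transcribed mainly in G2 and mitosis, and in normal skin the dividing cells are a minority found in the basal layer and the hair follicle.

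Values are log2 signals after RMA (a method that corrects, normalizes and summarizes probe intensities), differences are differences of these signals, and calls are those of limma at an adjusted p under 0.05. Array medians ranged from 5.58 to 5.63 (skin) and from 5.65 to 5.75 (tumors). *Rb1* ranged from 8.95 to 9.26 in skin, from 7.85 to 8.84 in Trp53ΔEC tumors and from 6.55 to 8.14 in RbΔEC; Trp53ΔEC tumors, and whether its probeset lies in the deleted part is not known here. Marker genes of cell types differed between the tissues as well. The mean of 6 skeletal muscle genes was 13.60 to 14.13 in skin, which includes a muscle layer, and 5.11 to 9.14 in tumors, and all 6 genes fell. Of 10 keratinocyte genes 4 fell and none rose, with a mean of 12.48 to 12.66 in skin, 10.45 to 12.28 in poorly differentiated tumors and 5.18 to 8.92 in undifferentiated/spindle carcinomas. All 3 adipocyte genes fell too (median -3.58), as did 3 of 6 fibroblast, 2 of 5 T cell, 2 of 4 endothelial, 1 of 3 sebaceous gland and 1 of 5 hair genes, whereas none of 5 macrophage genes and none of 4 B and plasma cell genes was called (limma, with 2 and 0 lower at an unadjusted p under 0.05), and no gene of any of these lists rose. Of all 18193 genes 3268 fell (limma, adjusted p under 0.05), and a count of 1 or 2 genes in a short list cannot be set apart from that share. In bulk tissue, fewer cells of a type and less RNA per cell cannot be told apart. The part of cell composition in the differences below was not tested.

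Promoter sequences were set beside the expression values because all members moved the same way in tumors. RefSeq windows of 300 bases (build GRCm38.p6, 250 before and 50 after the transcription start) were matched for 31 of the 36 members, and *Nsl1*, *Spc24*, *Zwilch*, *Aurkb* and *Incenp* were not matched. Letters were searched on both strands for 3 kinds of element known from cell cycle promoters: the cell cycle genes homology region (CHR, TTTGAA or TTCGAA), to which the DREAM and B-Myb-MuvB complexes bind, the CCAAT box of the factor NF-Y, and E2F sites (TTTCCCGC, TTTGGCGC or TTTCGCGC). Shown are the 4 members with the largest rise in tumors that have a window, followed by the 2 with the smallest, so that both ends of the range can be read. Each is printed 5′ to 3′ on the strand of the gene, with the 250 bases before the start and the first 30 after it, and capitals mark every match. The windows are chr2:127831830-127832109 on the minus strand for *Bub1*, chr13:73937738-73938017 on the minus strand for *Trip13*, chr11:117848987-117849266 on the plus strand for *Birc5*, chrX:134307834-134308113 on the plus strand for *Cenpi*, chr11:71019361-71019640 on the plus strand for *Mis12* and chr7:131560120-131560399 on the plus strand for *Bub3*, which has 2 overlapping windows of which the one with the lower coordinates is shown.
Bub1: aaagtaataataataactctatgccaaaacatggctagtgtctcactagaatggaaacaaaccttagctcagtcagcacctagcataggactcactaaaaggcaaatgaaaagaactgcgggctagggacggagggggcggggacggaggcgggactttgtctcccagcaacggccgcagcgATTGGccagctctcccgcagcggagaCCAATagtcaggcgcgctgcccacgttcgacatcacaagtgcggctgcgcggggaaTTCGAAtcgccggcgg
Trip13: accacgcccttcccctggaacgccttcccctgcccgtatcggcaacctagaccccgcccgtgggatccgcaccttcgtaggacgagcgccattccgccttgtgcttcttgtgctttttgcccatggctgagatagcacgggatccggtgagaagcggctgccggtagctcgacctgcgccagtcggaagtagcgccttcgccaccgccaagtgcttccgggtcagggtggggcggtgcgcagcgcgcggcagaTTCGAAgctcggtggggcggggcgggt
Birc5: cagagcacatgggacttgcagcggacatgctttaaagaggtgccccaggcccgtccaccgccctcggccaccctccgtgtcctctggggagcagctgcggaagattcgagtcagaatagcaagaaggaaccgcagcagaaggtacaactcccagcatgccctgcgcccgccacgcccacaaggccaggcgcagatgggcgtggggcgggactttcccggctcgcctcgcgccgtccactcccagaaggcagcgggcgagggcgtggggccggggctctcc
Cenpi: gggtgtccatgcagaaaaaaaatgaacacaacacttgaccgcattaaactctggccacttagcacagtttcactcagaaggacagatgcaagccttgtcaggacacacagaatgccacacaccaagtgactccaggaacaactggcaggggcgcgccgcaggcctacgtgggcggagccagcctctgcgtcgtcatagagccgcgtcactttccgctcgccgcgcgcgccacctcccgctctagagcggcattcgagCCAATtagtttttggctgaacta
Mis12: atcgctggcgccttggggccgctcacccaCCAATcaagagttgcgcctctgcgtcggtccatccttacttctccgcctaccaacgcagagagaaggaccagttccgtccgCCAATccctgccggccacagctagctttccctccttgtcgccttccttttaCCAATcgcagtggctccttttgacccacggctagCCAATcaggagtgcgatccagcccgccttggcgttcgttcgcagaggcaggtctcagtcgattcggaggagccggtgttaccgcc
Bub3: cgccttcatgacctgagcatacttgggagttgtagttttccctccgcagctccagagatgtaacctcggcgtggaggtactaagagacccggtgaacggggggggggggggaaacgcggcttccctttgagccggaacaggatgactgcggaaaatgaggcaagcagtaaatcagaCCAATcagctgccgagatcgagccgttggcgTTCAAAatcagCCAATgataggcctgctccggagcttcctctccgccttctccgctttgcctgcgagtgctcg

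In *Bub1* the CHR letters TTCGAA began at base 15 past the start, with a pair of CCAAT matches before it, the nearer one beginning 42 bases before the start. *Trip13* held TTCGAA at base 4 past the start and no CCAAT. *Cenpi* held 1 CCAAT match, at base 8 past the start, and *Birc5* held none of the letters in its window, although its tumor values were among the most raised. *Mis12*, at the low end of the range, held 4 CCAAT matches and no CHR letters. *Bub3* held TTTGAA, read on the opposite strand, 43 bases before the start, between CCAAT matches 74 and 32 bases before it. Across the 31 members with a window, CHR letters stood in 15 (48.4%), against 21.7% of the 27025 genes in the table. CCAAT stood in 20 members (64.5%), against 41.1% of all genes. Both CHR letters and CCAAT were found together in 12 members (38.7%), against 8.61% of all genes. These 12 were *Cenpa*, *Cenpl*, *Cenpm*, *Cenpn*, *Spc25*, *Cenpf*, *Bub1*, *Bub1b*, *Bub3*, *Ttk*, *Cdca8* and *Sgol1*, whose differences between tumors and skin ran from 0.84 in *Bub3* to 4.30 in *Bub1*, nearly the whole range of the members. E2F letters were found in 3 members (9.68%), *Cenpl*, *Cenpm* and *Dsn1*, against 2.12% of all genes. A match describes the letters in the window and does not show that a factor binds there.

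The first comparison asked how far the members differed between the 15 tumors and the 5 samples of normal skin. Every one of the 36 members rose in tumors (limma, adjusted p under 0.05), where 17.7% of all genes tested rose. The median difference of the members was 2.12 on the log2 scale, against 0.02 over all genes, and single members ran from 0.53 (*Nsl1*) to 4.30 (*Bub1*). In 32 members the lowest tumor lay above the highest skin sample, a separation seen in 6.90% of all genes, and the exceptions were *Cenpc1*, *Mis12*, *Bub3* and *Mad1l1*. By role, the median difference was 1.78 over the 12 genes of the inner kinetochore, 1.74 over the 7 of the outer kinetochore, 2.16 over the 4 of the corona, 2.43 over the 7 of the checkpoint and 2.48 over the 4 of the chromosomal passenger complex. Genes of DNA replication and proliferation outside mitosis moved as well: all 12 of such cycling-cell markers rose, with a median of 1.99, and the share of the members' rise that goes with more cycling cells was not tested.

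**Figure D1:**
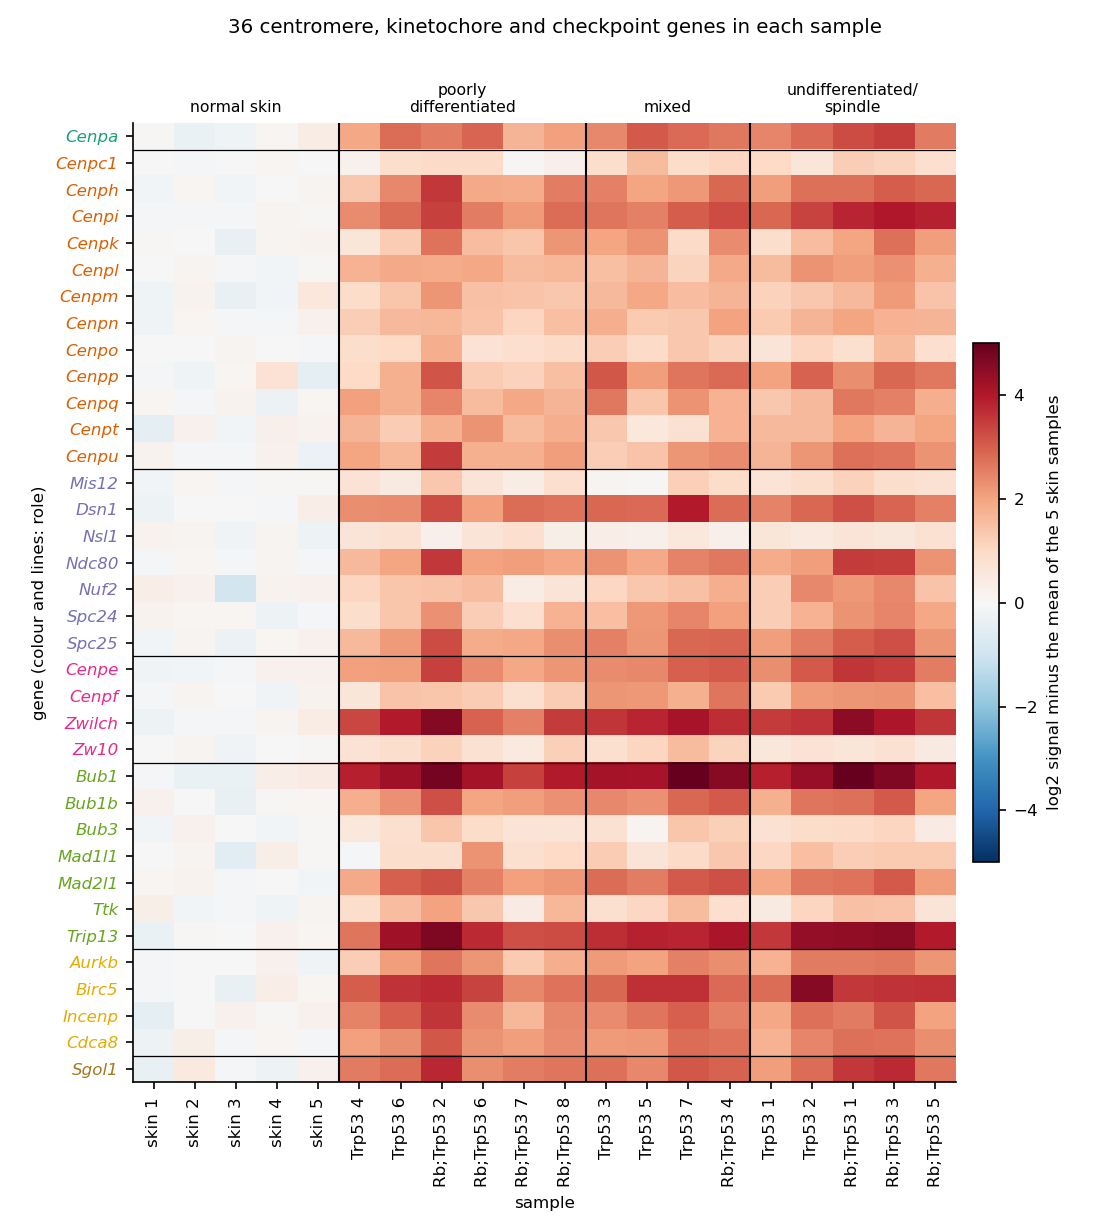
Log2 signal of each of the 36 genes (vertical axis, in order of role from the centromeric histone at the top to *Sgol1* at the bottom) in each of the 20 samples (horizontal axis, by histological class), minus the mean of the 5 skin samples for that gene. Red is higher than skin and blue lower; nearly all tumor cells are red, some of them pale, and *Bub1*, *Trip13* and *Zwilch* are the darkest genes.

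At the base of the kinetochore, *Cenpa* stood in the skin samples at 7.03, 6.64, 6.76, 7.05 and 7.32, and in tumors at a lowest of 8.64, a median of 9.58 and a highest of 10.43. All tumors lay above all skin samples, and the difference was 2.63 (standard error 0.22, limma adjusted p = 1.52e-08), a 6.2-fold rise. This rise rests on 1 of the 3 *Cenpa* probesets. A second, dimmer one fell by 0.41 (limma adjusted p = 0.00204 over all probesets) and the third differed by 0.20 (adjusted p = 0.355), so that the median of the *Cenpa* probesets was lower in tumors.

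In the inner kinetochore the largest rises were those of *Cenpi* and *Cenph*, which join *Cenpk* and *Cenpm* in one subcomplex. *Cenpi* was at 4.63, 4.64, 4.67, 4.86 and 4.77 in skin and between 6.85 and 8.72 in tumors, with a median of 7.60. Its difference of 3.03 (standard error 0.25, limma adjusted p = 1.03e-08) was an 8.18-fold rise, and the lowest tumor stood 1.99 above the highest skin sample. *Cenph* was at 4.74, 5.0, 4.76, 4.90 and 5.02 in skin and between 6.22 and 8.42 in tumors, with a median of 7.41, and rose by 2.44 (standard error 0.25, limma adjusted p = 2.04e-07). Both genes separated the tissues completely. The other members of this subcomplex rose by 1.77 (*Cenpk*) and 1.55 (*Cenpm*). For *Cenpk* the other 2 probesets gave only 0.29 and 0.30, and the median of its probesets did not pass the test (adjusted p = 0.189). *Cenpl* and *Cenpn*, whose proteins form a dimer that reads the *Cenpa* nucleosome, rose by 1.79 and 1.56. Among the genes of the subcomplex named for *Cenpo*, *Cenpp*, *Cenpq* and *Cenpu*, the differences were 1.06, 2.22, 1.96 and 2.10. *Cenpt*, which recruits the Ndc80 complex through its long tail, rose by 1.58. *Cenpc1*, whose product ties the nucleosome to the Mis12 complex, had the smallest difference of the inner kinetochore, 0.84 (95% interval 0.46 to 1.22), and its values of 7.32 to 7.47 in skin overlapped those of 7.45 to 8.96 in tumors.

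The outer kinetochore was uneven. In the Mis12 complex *Dsn1* was at 4.72, 5.01, 5.0, 4.90 and 5.33 in skin and between 7.03 and 8.94 in tumors, with a median of 7.79. It rose by 2.80 (standard error 0.21, limma adjusted p = 2.37e-09), a 6.97-fold rise without overlap. Its partners *Mis12* and *Nsl1* showed the smallest differences of all members, 0.73 (95% interval 0.38 to 1.09) and 0.53 (0.30 to 0.75), and the intervals of both lie below that of *Dsn1* (2.36 to 3.24). *Mis12* was at 7.02, 7.24, 7.12, 7.21 and 7.21 in skin and between 7.23 and 8.52 in tumors, where the lowest value, in Trp53ΔEC tumor 5, fell just inside the range of skin. *Nsl1* was at 6.0, 5.95, 5.63, 5.95 and 5.58 in skin and between 6.08 and 6.68 in tumors, a narrow gap of 0.08 between the tissues. A second probeset of *Nsl1* gave a larger difference, 1.24 (limma adjusted p = 0.000525 over all probesets). *Pmf1*, the fourth subunit of this complex and not a member, differed by 0.54 (limma adjusted p = 0.0155). In the Ndc80 complex, whose rod binds the microtubule, all 4 subunits rose. *Spc25* went from 6.24, 6.5, 6.08, 6.48 and 6.59 in skin to between 8.0 and 9.63 in tumors, with a median of 8.71, a difference of 2.45 (standard error 0.23, limma adjusted p = 6.4e-08). *Ndc80* rose by 2.38, *Spc24* by 1.74 and *Nuf2* by 1.45, and the lowest *Nuf2* tumor cleared the highest skin sample by 0.02 only.

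In the corona, *Zwilch* was at 4.76, 4.90, 4.91, 5.14 and 5.37 in skin and between 7.53 and 9.60 in tumors, with a median of 8.64. The difference of 3.68 (standard error 0.24, limma adjusted p = 3.2e-10) was a 12.9-fold rise. *Zw10*, its partner in the Rod-Zw10-Zwilch complex, which brings dynein and Mad1 to the kinetochore and also works at the Golgi in cells that are not dividing, rose by 0.86 (95% interval 0.55 to 1.16). The gene of the remaining subunit, *Kntc1*, rose by 2.62. *Cenpe*, a kinesin that carries chromosomes to the spindle equator, was at 5.74, 5.78, 5.81, 6.13 and 6.13 in skin and between 7.85 and 9.51 in tumors, with a median of 8.33. It rose by 2.66 (standard error 0.25, limma adjusted p = 6.04e-08), with no overlap between the tissues. *Cenpf*, a large coiled-coil protein of the corona, rose by 1.67.

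On the probesets kept, the largest differences of all members were those of a pair of checkpoint genes. *Bub1*, a kinase that marks centromeric chromatin and recruits other checkpoint proteins, was at 4.66, 4.39, 4.42, 5.06 and 5.14 in skin. In tumors it ran from 8.17 to 9.83 with a median of 8.91, and every tumor lay at least 3.03 above every skin sample. The difference of 4.30 (standard error 0.22, limma adjusted p = 7.03e-12), a 19.7-fold rise, was the eighth highest among all genes of the array. *Trip13*, an ATPase that remodels Mad2, was at 5.22, 5.60, 5.56, 5.77 and 5.64 in skin and between 8.23 and 10.23 in tumors, with a median of 9.39, and rose by 3.87 (standard error 0.25, limma adjusted p = 2.09e-10). Other checkpoint genes rose less. *Mad2l1*, the inhibitor that binds *Cdc20*, rose by 2.59, and *Mad1l1*, its anchor at the kinetochore, by 1.09 (95% interval 0.61 to 1.57) with overlapping values, since Trp53ΔEC tumor 4 (6.21) lay within the range of skin (5.74 to 6.56). *Bub1b* rose by 2.43, while *Bub3*, the shared partner of both Bub kinases that is present through the cell cycle, rose by 0.84, from 10.38, 10.72, 10.49, 10.37 and 10.54 in skin to between 10.63 and 11.89 in tumors, with Trp53ΔEC tumor 5 again inside the range of skin. The kinase gene *Ttk* rose by 1.15.

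Read from the probesets kept, all 4 subunits of the chromosomal passenger complex rose by more than 2. *Birc5*, which encodes survivin, was at 6.34, 6.46, 6.06, 6.78 and 6.54 in skin and between 8.85 and 10.97 in tumors, with a median of 9.96. Its difference was 3.33 (standard error 0.25, limma adjusted p = 2.15e-09), a 10.1-fold rise. *Incenp*, the scaffold of the complex, was at 7.44, 7.90, 8.13, 7.99 and 8.14 in skin and between 9.59 and 11.48 in tumors, with a median of 10.42, and rose by 2.56 (standard error 0.23, limma adjusted p = 2.7e-08). No tumor reached down to skin in either gene. The borealin gene *Cdca8* rose by 2.40 and the kinase gene *Aurkb* by 2.13. On the probesets kept, the members of this complex differed less among themselves than did those of the Mis12 complex. This contrast depends on the probeset: others of *Incenp* gave 1.66, 1.21, 0.96 and -0.22, and a second one of *Nsl1* gave 1.24. *Sgol1* (shugoshin, *Sgo1* in current nomenclature), which shields centromeric cohesin until anaphase, was at 5.42, 6.31, 5.69, 5.57 and 6.04 in skin and between 7.90 and 9.59 in tumors, with a median of 8.56. It rose by 2.85 (standard error 0.24, limma adjusted p = 9.15e-09) and also separated the tissues.

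**Figure D2:**
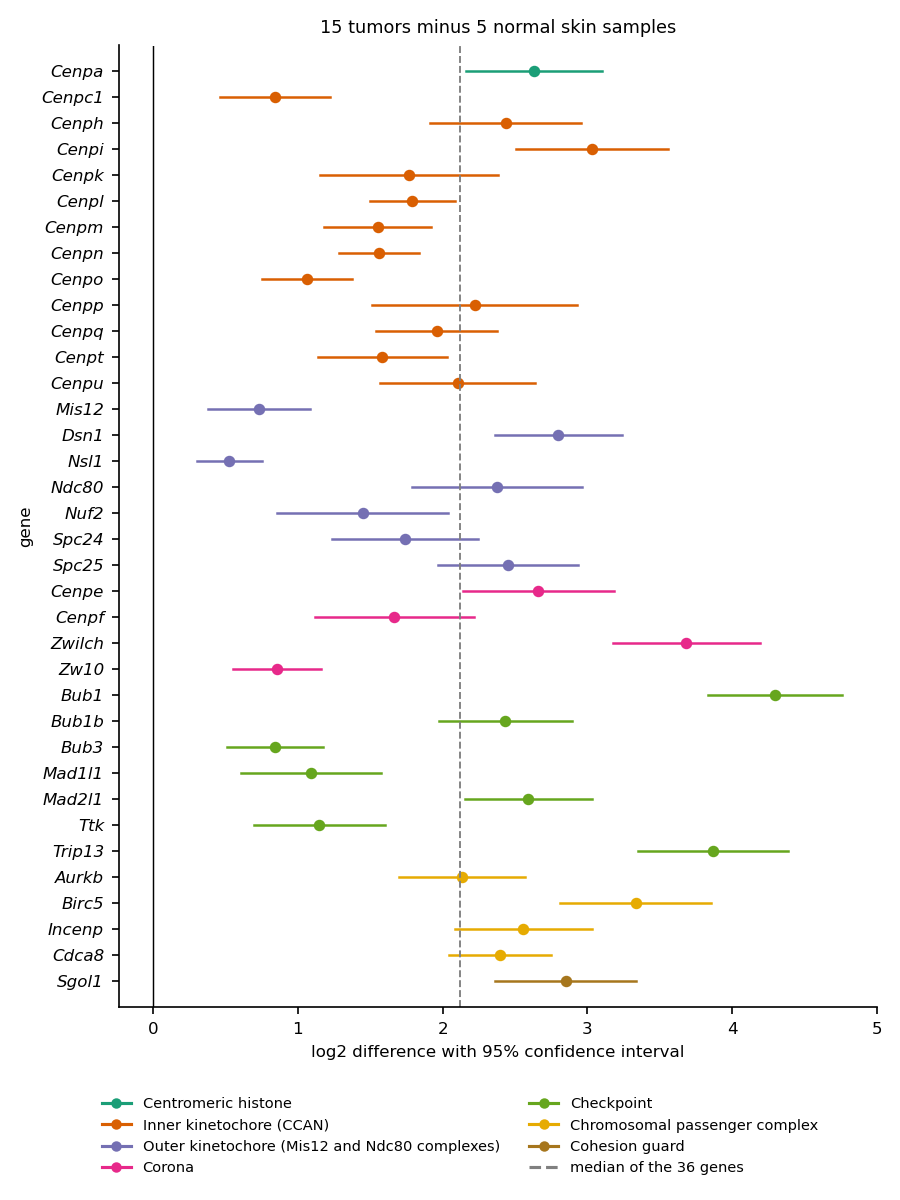
Log2 difference between 15 tumors and 5 skin samples for each of the 36 genes (horizontal axis, with its 95% confidence interval from limma), by gene (vertical axis) and coloured by role. All intervals lie above 0, with *Bub1* at 4.30 and *Nsl1* at 0.53 as the ends, and the dashed line marks the median of 2.12.

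How far these results depend on the probeset was read from all 76 probesets of the members. On the full table of probesets 61 of them rose, 3 fell and 12 did not pass. Of all 45037 probesets 9401 rose and 6916 fell. Of the 40 member probesets that were not kept, 25 rose, and those that fell belonged to *Cenpa*, *Bub1b* (by 0.81) and *Incenp* (by 0.22). For *Bub1b* the remaining probeset rose by 2.79, and for *Incenp* the other 3 rose by between 0.96 and 1.66, against 2.56 in the one kept. *Bub1* has a second, dim probeset that differed by 0.25 only and did not pass (adjusted p = 0.176). The other probesets of *Trip13* rose by 2.45 and 0.42, against 3.87 in the one kept. *Cenpo*, with 6 probesets, rose in 2 of them. The probesets kept for *Cenpo*, *Bub3*, *Trip13*, *Aurkb*, *Incenp* and *Cdca8* carry a suffix that warns of probes shared with other transcripts.

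Each histological class and each genotype was also set against the same 5 skin samples, so that these contrasts share their controls. All 36 members rose in the poorly differentiated tumors (median 1.89, range 0.56 to 4.09, where 19.2% of all genes rose), in the mixed tumors (median 2.23, range 0.35 to 4.49, 21.9% of all genes) and in the undifferentiated/spindle carcinomas (median 2.34, range 0.61 to 4.41, 22.0% of all genes). All 36 rose too in the Trp53ΔEC tumors (median 1.94, range 0.52 to 4.26, 15.6% of all genes) and in the RbΔEC; Trp53ΔEC tumors (median 2.22, range 0.53 to 4.33, 15.7% of all genes). The least secure of these calls were *Mis12* and *Nsl1* in the mixed class, where *Mis12* was near skin in Trp53ΔEC tumor 3 (7.28) and tumor 5 (7.23) and well above it in Trp53ΔEC tumor 7 (8.35) and RbΔEC; Trp53ΔEC tumor 4 (8.07). Without Trp53ΔEC tumor 7 the difference of *Mis12* was 0.36 (limma adjusted p = 0.179) and that of *Nsl1* 0.29 (adjusted p = 0.112). For *Mis12* the call was lost also without any one of the skin samples or without RbΔEC; Trp53ΔEC tumor 4, and for *Nsl1* without normal skin 3, normal skin 5 or Trp53ΔEC tumor 3.

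**Figure D3:**
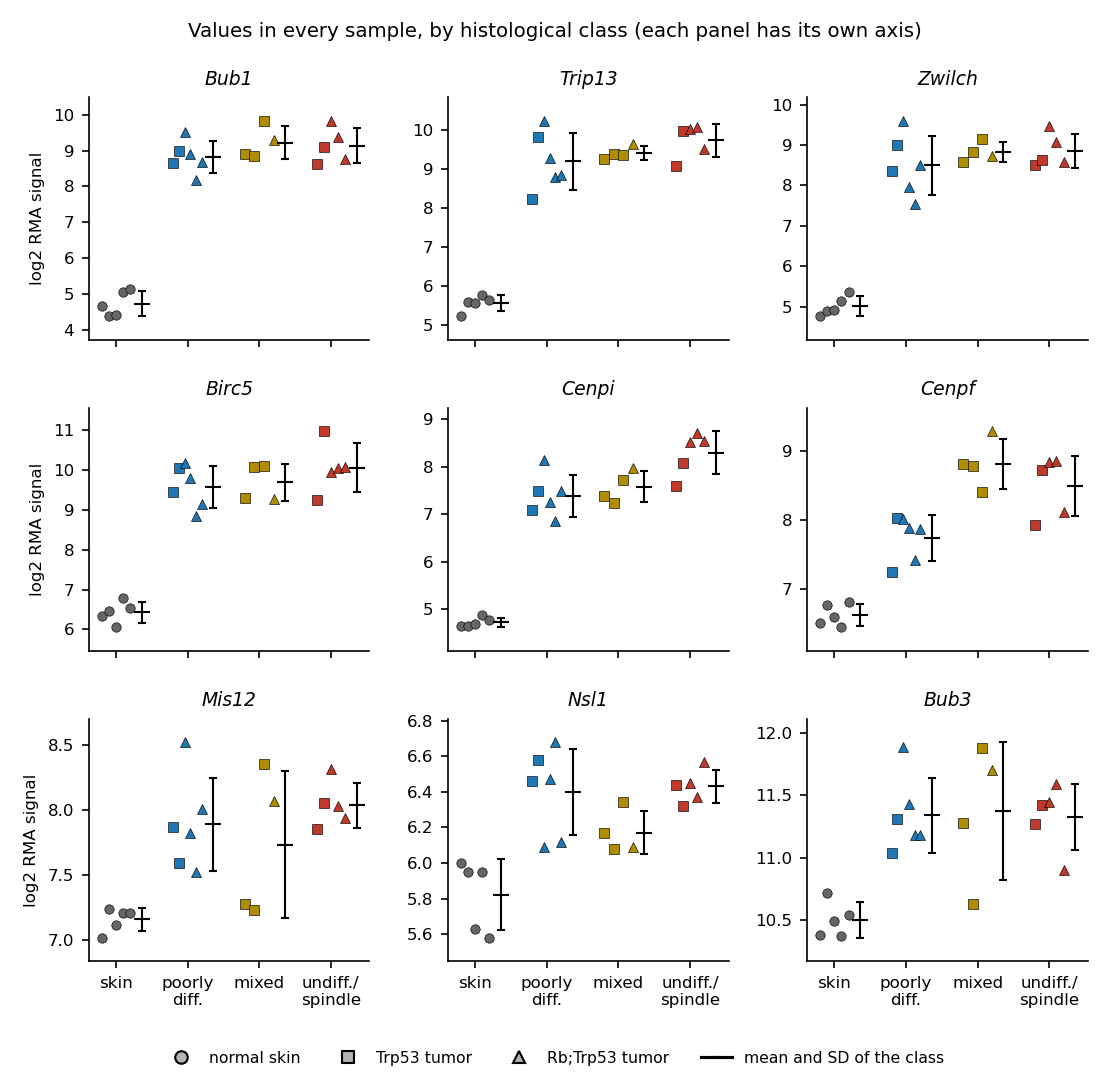
Log2 signal (vertical axis, scaled separately in each panel) of 9 members in every sample, by class (horizontal axis), with circles for normal skin, squares for Trp53ΔEC and triangles for RbΔEC; Trp53ΔEC tumors, and the mean and SD of each class beside them. *Bub1*, *Trip13*, *Zwilch*, *Birc5* and *Cenpi* stand clear of skin in every tumor, *Cenpf* and *Cenpi* are higher in undifferentiated/spindle than in poorly differentiated carcinomas, and *Mis12* and *Bub3* overlap skin.

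The next comparison set the 5 undifferentiated/spindle carcinomas against the 6 poorly differentiated ones, leaving out mixed tumors. Only 2 members, *Cenpi* and *Cenpf*, were called higher and none lower, a share below the 12.7% of all genes that were called higher. At an unadjusted p under 0.05, 5 members were higher (19.2% of all genes were) and none lower. No member had every undifferentiated/spindle carcinoma above every poorly differentiated one, as 7.43% of all genes did. The median difference of the members was 0.25, against 0.02 over all genes, with 31 of 36 above 0, where 52.1% of all genes were. This median ran from 0.185 to 0.409 when single tumors were left out, with 0.377 without Trp53ΔEC tumor 1 and 0.409 without RbΔEC; Trp53ΔEC tumor 2. Without these tumors 11 and 12 members were higher at an unadjusted p under 0.05, and the share of all genes at that p was not counted. At an adjusted p under 0.05 limma called 3 and 4 members higher there, and 1996 and 2307 of all 18193 genes. *Cenpi* was at 7.60, 8.09, 8.52, 8.72 and 8.55 in the undifferentiated/spindle carcinomas and at a lowest of 6.85, a median of 7.38 and a highest of 8.14 in the poorly differentiated ones, where RbΔEC; Trp53ΔEC tumor 2 was the highest. Its difference was 0.91 (standard error 0.25, limma adjusted p = 0.0222). *Cenpf* was at 7.92, 8.73, 8.84, 8.86 and 8.12 against a lowest of 7.24, a median of 7.87 and a highest of 8.03, a difference of 0.75 (standard error 0.22, limma adjusted p = 0.0286). The groups overlapped in both genes. In the mixed tumors *Cenpi* was at 7.39, 7.23, 7.73 and 7.97, within the range of the poorly differentiated ones, whereas *Cenpf* was at 8.81, 8.78, 8.40 and 9.29, above all of them.

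Below the threshold, the differences of *Nuf2* (0.85, limma adjusted p = 0.0533), *Cenpp* (0.90, adjusted p = 0.0941) and *Cenpa* (0.59, adjusted p = 0.141) came next. The checkpoint genes that differed most between tumors and skin were not called by grade: *Bub1* differed by 0.32 (95% interval -0.25 to 0.89) and *Trip13* by 0.54 (-0.20 to 1.28). For *Mad2l1* the difference was 0.02 (-0.60 to 0.63) and for *Cdca8* 0.03 (-0.46 to 0.52). The largest differences in the other direction were those of *Ttk*, -0.30 (-0.95 to 0.34), and *Zw10*, -0.24 (-0.54 to 0.06). These grade calls depended on single tumors. Without RbΔEC; Trp53ΔEC tumor 1 or tumor 3, both undifferentiated/spindle carcinomas, no member was called by limma (4 and 3 passed at an unadjusted p under 0.05). In these fits 1994 and 2066 of all genes were called higher, and from 1996 to 2307 in the fits without a single tumor named next. Without Trp53ΔEC tumor 2 or RbΔEC; Trp53ΔEC tumor 7 only *Cenpi* was called. Without RbΔEC; Trp53ΔEC tumor 5 *Cenpi* lost its call (0.84, limma adjusted p = 0.0568), and *Cenpf* and *Nuf2* (0.97, adjusted p = 0.0455) were called. *Nuf2* joined *Cenpi* and *Cenpf* without Trp53ΔEC tumor 1 (1.025, adjusted p = 0.026) or RbΔEC; Trp53ΔEC tumor 6 (0.94, adjusted p = 0.047). Without RbΔEC; Trp53ΔEC tumor 2, the poorly differentiated tumor with high values, 4 members were called: *Cenpi*, *Cenpf*, *Cenpp* (1.21, limma adjusted p = 0.00231) and *Cenpe* (0.88, adjusted p = 0.0238). Other settings kept the count of 2 but not the genes. With the mixed tumors counted among the undifferentiated/spindle carcinomas *Cenpi* differed by 0.59 (limma adjusted p = 0.136), and the calls were *Cenpf* (0.90, adjusted p = 0.00615) and *Cenpp* (0.95, adjusted p = 0.0353). With the median of each gene's probesets *Cenpf* differed by 0.475 (limma adjusted p = 0.0674), and *Nsl1* was called beside *Cenpi* (0.395, adjusted p = 0.011), since the second *Nsl1* probeset differed by 0.76 between the grades (adjusted p = 0.00627 over all probesets) and the brighter one by 0.03.

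RNA quality and the signals of cell type marker genes moved with grade. The difference between the 3′ and 5′ probesets of the *Actb* control, which grows as RNA degrades, lay between 0.24 and 0.38 in undifferentiated/spindle and between 0.42 and 0.82 in poorly differentiated tumors. With this measure as a covariate no member was called by limma (4 passed at an unadjusted p under 0.05), where 1375 of all genes were called higher. The differences themselves did not all shrink in that fit. *Cenpi* went from 0.91 to 1.14 while its standard error grew from 0.25 to 0.38 (limma adjusted p = 0.0769), *Cenpf* went from 0.75 to 0.64 with a standard error of 0.34 (adjusted p = 0.261), and the median of the members went from 0.25 to 0.445. Of the 10 keratinocyte genes 9 were lower in undifferentiated/spindle carcinomas, 3 of 5 macrophage genes and 2 of 4 endothelial genes were higher, and 1 of 6 fibroblast genes was higher. Over all 18193 genes 2304 were called higher and 1802 lower. Here too, fewer cells of a type and less RNA per cell cannot be told apart. Cycling-cell markers outside mitosis were not called by grade in any of 12 (limma, with 1 higher and 1 lower at an unadjusted p under 0.05), with a mean of 9.35 to 10.61 in poorly differentiated and 9.37 to 10.46 in undifferentiated/spindle tumors. The part of RNA quality and of other cell types in the differences of *Cenpi* and *Cenpf* beyond these values was not tested.

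Loss of *Rb1* frees E2F factors in cells that otherwise hold them, and the comparison of the 8 RbΔEC; Trp53ΔEC tumors with the 7 Trp53ΔEC tumors asked whether the members differ between the genotypes. None was called (limma, at an adjusted p under 0.05 and also under 0.1), and neither was any by the methods' t-test, with equal or unequal variance. Few genes of the array were: 0.0110% of all genes were called higher. At an unadjusted p under 0.05, 4 members were higher in RbΔEC; Trp53ΔEC tumors, by limma as by both forms of that test, where 2.65% of all genes were, and none was lower. The median difference over the members was 0.18, against -0.01 over all genes, and 29 of 36 members were above 0, where 48.8% of all genes were. Leaving out single tumors moved this median from 0.117 (without Trp53ΔEC tumor 4) to 0.27 (without RbΔEC; Trp53ΔEC tumor 7). In the latter case 7 members passed at an unadjusted p under 0.05, and the share of all genes at that p was not counted. The smallest p belonged to 3 genes of the inner kinetochore. *Cenpt* ran from 7.11 through a median of 7.91 to 8.26 in Trp53ΔEC tumors and from 8.15 through 8.36 to 8.83 in RbΔEC; Trp53ΔEC tumors, and the difference was 0.59 (95% interval 0.22 to 0.97, limma adjusted p = 0.609). *Cenpk* ran from 6.66 through 7.32 to 8.29 and from 7.41 through 8.18 to 8.80, a difference of 0.77 (0.19 to 1.35, limma adjusted p = 0.807). *Cenpu* ran from 6.77 through 7.24 to 7.74 and from 7.31 through 7.83 to 9.04, a difference of 0.62 (0.10 to 1.15, limma adjusted p = 0.869). The genotypes overlapped in all 3 genes. *Ndc80* differed by 0.66 (0.07 to 1.25, adjusted p = 0.88).

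For most members the intervals leave room for moderate differences in either direction. *Bub1* differed between genotypes by 0.07 (95% interval -0.44 to 0.59), *Trip13* by 0.25 (-0.34 to 0.84), *Cenpa* by 0.03 (-0.51 to 0.56), *Birc5* by -0.22 (-0.81 to 0.37) and *Nsl1* by 0.01 (-0.23 to 0.25). Poorly differentiated tumors make up 4 of the 8 RbΔEC; Trp53ΔEC and 2 of the 7 Trp53ΔEC tumors. With histological class as a covariate the median difference was 0.25, within poorly differentiated tumors alone 0.20 and within the other tumors 0.29, and none of these fits called a member (limma, with 6, 0 and 7 members at an unadjusted p under 0.05). Of all genes limma called 3, 0 and 0 higher in these fits. The shares of all genes at the unadjusted p were not counted there, so the member counts are not read as a result. The 12 cycling-cell markers outside mitosis were all higher in RbΔEC; Trp53ΔEC tumors, with a median difference of 0.48 and 6 of them at an unadjusted p under 0.05, yet none was called. Skeletal muscle genes also moved with genotype, with all 6 lower in RbΔEC; Trp53ΔEC tumors at an unadjusted p under 0.05 and a median of -1.79, and their part in the members' differences was not tested. The grade difference did not differ detectably between genotypes in any member (limma's interaction term called 0 of 36 members and 0% of all genes, with 0 members at an unadjusted p under 0.05), with 3 undifferentiated/spindle and 4 poorly differentiated tumors in one genotype and 2 of each in the other.

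**Figure D4:**
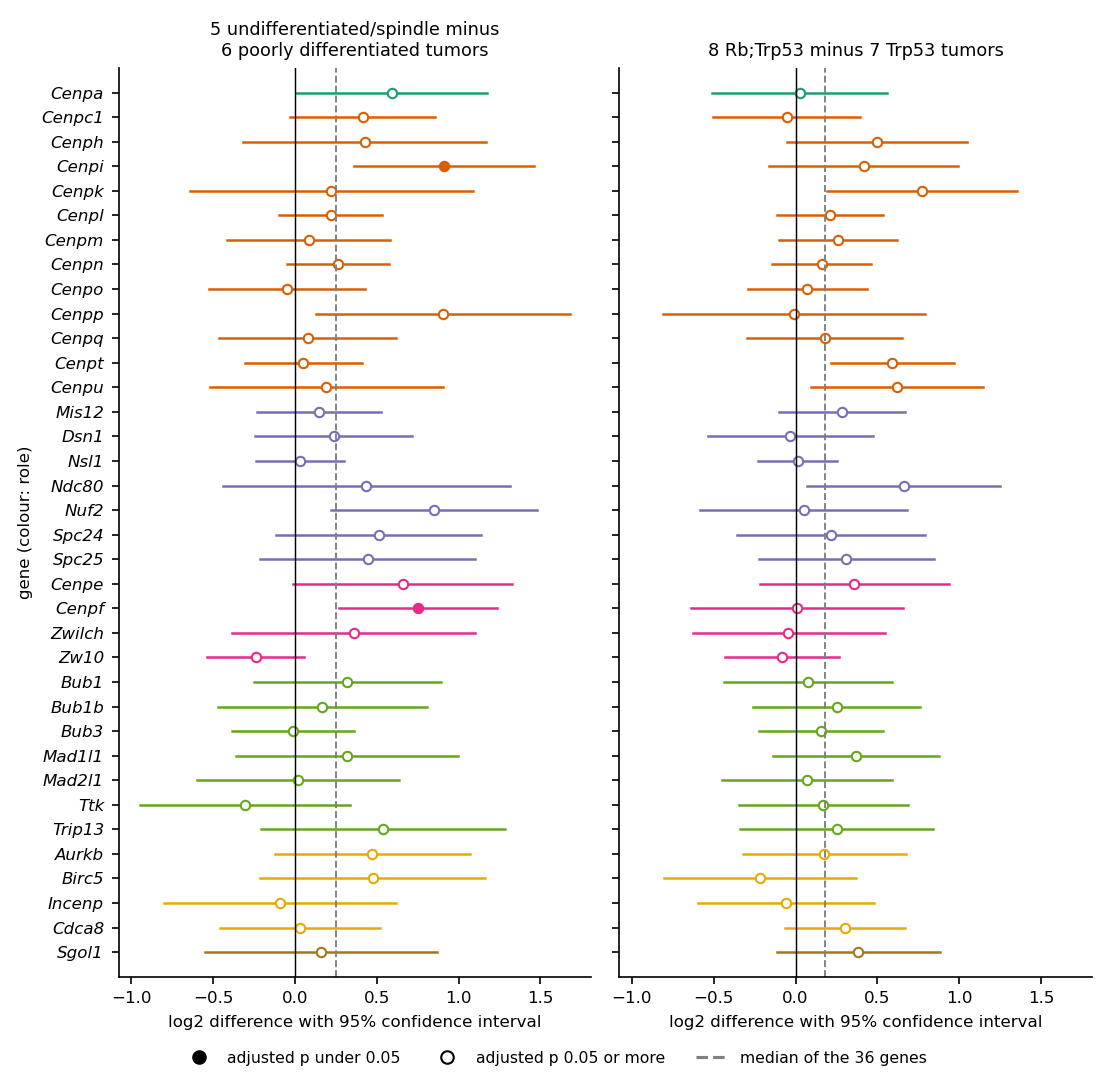
Log2 differences of the 36 genes (horizontal axes, with 95% confidence intervals from limma) between undifferentiated/spindle and poorly differentiated carcinomas on the left, and between the genotypes on the right, coloured by role. Filled points passed at an adjusted p under 0.05, which held for *Cenpi* and *Cenpf* by grade and for no gene by genotype, and the dashed lines mark the medians of 0.25 and 0.18.

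Single tumors differed in the members as a group. Taking the mean over the 36 genes relative to skin, the lowest tumors were RbΔEC; Trp53ΔEC tumor 7 (1.56), Trp53ΔEC tumor 4 (1.57) and Trp53ΔEC tumor 1 (1.73), and the highest were RbΔEC; Trp53ΔEC tumor 2 (2.63), tumor 3 (2.59) and tumor 1 (2.49), while skin samples lay between -0.13 and 0.09. RbΔEC; Trp53ΔEC tumor 2 had the highest value of all tumors in 17 of the 36 members. RbΔEC; Trp53ΔEC tumor 7 had the lowest in 12 and Trp53ΔEC tumor 4 in 11. These 3 tumors are poorly differentiated carcinomas, so that this class spanned the full range of tumors. The *Actb* difference was 0.82 in RbΔEC; Trp53ΔEC tumor 2, 0.44 in tumor 7 and 0.81 in Trp53ΔEC tumor 4. The part of RNA quality in the spread between tumors was not tested. Among the members, the SD over the 15 tumors was smallest in *Nsl1* (0.20) and *Cenpn* (0.27) and largest in *Cenpp* (0.74) and *Cenpk* (0.66), while *Bub1*, with the largest rise, had an SD of 0.47.

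**Figure D5:**
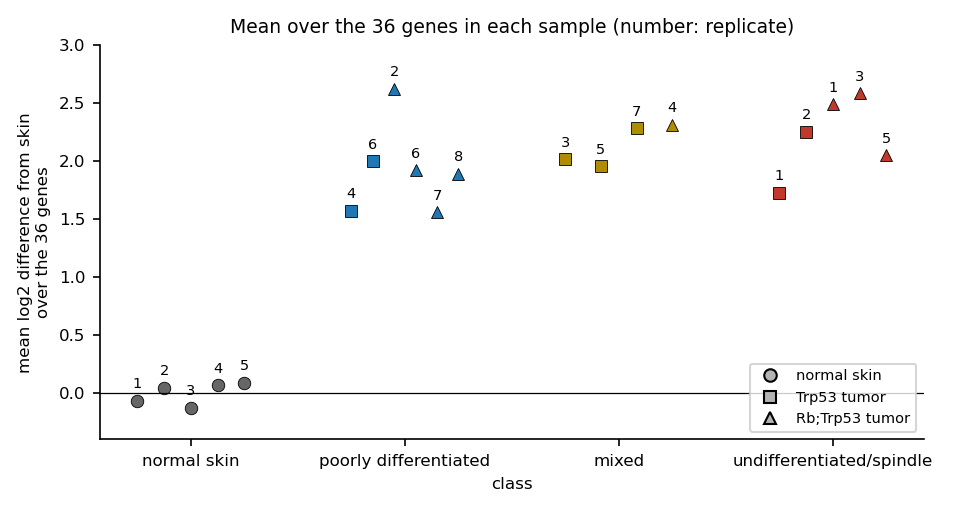
Mean over the 36 genes of the log2 difference from the skin mean (vertical axis) in each sample, by class (horizontal axis), with squares for Trp53ΔEC and triangles for RbΔEC; Trp53ΔEC tumors and the replicate number beside each point. All tumors lie between 1.56 and 2.63, and both ends of this range belong to poorly differentiated tumors.

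The pathway beyond the 36 members was read from lists of other genes. Of 40 further centromere and kinetochore genes 37 were measured, of which 24 rose in tumors, 4 fell and 9 did not pass, with a median difference of 1.23. *Haspin*, a kinase that marks histone H3 for the passenger complex, rose by 3.59 (standard error 0.24, limma adjusted p = 4.29e-10). *Ska1*, which couples the kinetochore to the microtubule tip, rose by 3.13, the depolymerizing kinesin gene *Kif2c* by 3.07 and the dynein adaptor gene *Spdl1* by 3.02. Those that fell were *Ndel1* (by 0.66) and *Dync1h1* (by 0.43), both of the dynein motor machinery that also serves cells outside mitosis, *Cenpx* (by 0.38) and *Kansl1* (by 0.38). *Cenpb*, which binds a DNA box in centromeric repeats, differed by 0.00 (standard error 0.24) and *Cenpv* by -0.60 (standard error 0.35), neither past the test.

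Of the 21 genes of the anaphase-promoting complex and its targets, on which the checkpoint acts, 13 rose, 1 fell and 7 did not pass, with a median of 0.79. The largest rises were those of the activator *Cdc20*, by 3.05 (standard error 0.21, limma adjusted p = 6.88e-10), of the ubiquitin-conjugating enzyme gene *Ube2c*, by 2.82, of the inhibitor *Fbxo5*, by 2.15, and of the separase gene *Espl1*, by 1.21. *Anapc13*, a core subunit, fell by 0.47, and the securin gene *Pttg1* differed by -0.05 (standard error 0.20). Core subunits that rose, such as *Anapc1* (0.88) and *Cdc27* (0.79), differed less than the activator. Among the cycling-cell markers outside mitosis the largest rises were those of *Tk1* (2.96), *Mcm5* (2.69), *Rrm2* (2.57) and *Mcm4* (2.18), genes of nucleotide supply and of the replicative helicase. By grade, 5 of the 37 further centromere genes were called higher in undifferentiated/spindle carcinomas, *Zwint* (1.39), *Ska2* (1.06), *Nek2* (0.68), *Pmf1* (0.58) and *Ppp1cc* (0.49), as were 4 of the 21 genes of the anaphase-promoting complex, *Cdc16* (1.16), *Anapc11* (0.70), *Cdc23* (0.69) and *Anapc4* (0.68), while none of either list was called lower. The share is 13.5% in the first list, near the 12.7% of all genes that were called higher, and 4 of 21 in the second. Between genotypes none of the further genes was called (limma, with 3 of the 37, 2 of the 21 and 6 of the 12 higher at an unadjusted p under 0.05).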

How the data were processed

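Total RNA of 20 samples, tested on a Bioanalyzer, had been hybridized to Affymetrix MOE430 2.0 arrays. As deposited, values were log2 signals computed by the authors with RMA (version not given in the sources used here), from 2.34 to 14.72. Array signals carry no read depth, so the number of arrays limits the precision. Of 45101 probesets 64 controls were left out. The platform annotation gave 1 gene symbol to 34945 probesets, several to 932 and none to 9160, and probesets with several were not named. Keeping the probeset with the highest mean per gene left 18193 genes. *Trp53* was not analysed here. Groups and replicate numbers were taken from the labels. Groups were compared with limma 3.58.1 (lmFit and eBayes, two-sided, R 4.3.3), with Benjamini-Hochberg adjustment over all genes and calls at an adjusted p under 0.05; tumors were fitted against skin, class against class, genotype against genotype, and grade by genotype as an interaction. No replicate block was used, since tumors of the 2 genotypes with the same number did not deviate together (correlations between -0.48 and 0.64 over 7 pairs). The script was tested on simulated data. Python 3.11.15, numpy 2.4.6, pandas 2.3.3 and matplotlib 3.10.9 did the rest.

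The members, the other gene lists and the tests were chosen with earlier results of these data known. All members are named. Full values are given for the 2 members of each role with the largest difference between tumors and skin, for the members called by grade and for the 3 with the smallest p between genotypes, and 4 genes are named from each other pathway list by the largest difference; the values of *Mis12*, *Nsl1*, *Bub3*, *Ndc80* and further list genes were added after they had been seen. Lists held 37 of 40 further centromere and kinetochore genes, 21 genes of the anaphase-promoting complex and its targets, 12 of 13 cycling-cell markers, and markers of keratinocytes, fibroblasts, skeletal muscle, adipocytes, macrophages, T cells, B and plasma cells, endothelium, sebaceous gland and hair. Promoter windows came from a RefSeq table of build GRCm38.p6; motif shares count a gene once if any of its windows holds the letters. The alternatives tried were the median of the probesets, all 45037 probesets, array centring, quantile normalization, a filter on dim genes, an intensity trend, array weights, the methods' t-test, RNA quality, a replicate block, covariates and subsets of tumors, other thresholds, and leaving out each sample.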

Additional observations from a re-analysis of the deposited data

Results flagged for a closer look

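A Dixon test marked the highest or lowest sample of a group as standing apart in 15 of 216 group values of the members (6.94%), where chance marks about 1 in 20. Classes and genotypes share tumors, and 8 of the marks came from 1 tumor, so these values are not independent. No share over all genes stands beside the count, which is not read as a result about the members. Among the 6 poorly differentiated tumors, RbΔEC; Trp53ΔEC tumor 2 stood above the others in 8 members: *Cenpo* (log2 signal 8.09, the next tumor 7.26), *Cenpp* (8.46, next 7.08), *Cenpu* (9.04, next 7.61), *Ndc80* (8.99, next 7.54), *Cenpe* (9.35, next 8.30), *Bub1b* (9.79, next 8.85), *Cdca8* (10.38, next 9.66) and *Sgol1* (9.59, next 8.58). Normal skin 3 was the lowest skin sample for *Cenpk* (5.66, next 6.07) and for *Nuf2* (5.05, next 6.17). Trp53ΔEC tumor 7 was the highest for *Dsn1* (8.94), both among mixed tumors (next 7.86) and among Trp53ΔEC tumors (next 7.88), and for *Bub1* among Trp53ΔEC tumors (9.83, next 9.10). Trp53ΔEC tumor 2 was the highest Trp53ΔEC tumor for *Nuf2* (8.37, next 7.45), and RbΔEC; Trp53ΔEC tumor 6 the highest of its genotype for *Mad1l1* (8.51, next 7.61). No member's grade difference was found to differ between genotypes.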

How the results depend on the processing

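Between tumors and skin all 36 members kept their call without any one sample (median of the members 2.05 to 2.17). At an adjusted p under 3e-07, limma on 1 probeset per gene called 19 members higher, and 143 of all 18193 genes. The methods used this threshold for a t-test on probesets, together with a further criterion that was not applied here. With the median of the probesets 34 were higher and 1 was lower: *Cenpa* turned to -0.41 (limma adjusted p = 0.00203), and the median of the members was 1.77. This setting also called 1 member lower in each class and each genotype against skin, with medians of 1.76 (poorly differentiated), 1.85 (mixed), 1.96 (undifferentiated/spindle), 1.65 (Trp53ΔEC) and 1.88 (RbΔEC; Trp53ΔEC). Over the 36 members and all alternatives between tumors and skin, 1129 of 1148 values kept direction and call. Many of these alternatives refit the same arrays with a sample left out, or the same probesets, so that agreement is partly built in. The values that changed were those of *Cenpa* and *Cenpk* with the median of the probesets, and calls lost at the threshold of 3e-07. Leaving out single samples gave 34 to 36 calls in mixed tumors. The methods' t-test with unequal variance called 32 members in mixed tumors, losing *Cenpt*, *Mis12*, *Nsl1* and *Bub3*. In poorly differentiated tumors it called 34, losing *Cenpc1* and *Mad1l1*. Of all genes it called 2167 and 3534 higher in these classes. Array centring and quantile normalization each gave 34 calls in mixed and 35 in poorly differentiated tumors. By grade, the count of 2 became 3 after array centring or without dim genes, 1 by the methods' t-test with equal variance, and 0 with unequal variance, with the RNA quality covariate or with the replicate block. Of all genes 1708, 1375 and 28 were called higher in the fits with 0, in this order. The block thus left few calls on the whole array, and its 0 cannot be read as a result about the members. The count ran from 0 to 4 without single tumors. With the replicate block the median by grade turned to -0.45 and *Cenpi* to -0.052 (limma adjusted p = 0.984), and 30 members were called in poorly differentiated and 34 in mixed tumors against skin. The median of the interaction, 0.17, turned to -0.13 without Trp53ΔEC tumor 1 and to -0.02 without RbΔEC; Trp53ΔEC tumor 7 (range to 0.46), and the block could not be fitted there. Between genotypes none of the alternatives called a member. Beyond the fewer samples in some fits, the cause of these changes was not tested.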
